A study of Homo sapiens with 6 samples.

Results

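Mitochondrial protein import and proteolysis were described here through 36 genes, 26 of import translocases and their motor and 10 of proteases, chosen by name among the 25420 genes of the 3′ UTR annotation. The reads of all 3′ UTR entries of a gene were summed. MOLM-13 cells, an established human line of acute myeloid leukaemia, were kept for 2 h in 10 µM C646, an inhibitor of the acetyltransferases CBP and p300, or in DMSO, the vehicle. Both groups received 100 µM 4-thiouridine (4sU) during the last 1 h, and each group had 3 replicates. The question put to these libraries was which transcripts newly made in that hour changed when CBP and p300 were inhibited for a short time. In SLAM-seq, alkylated 4sU is sequenced as a C where the genome has a T. Reads carrying such a change (T > C reads) were taken as reads of RNA made during the labelling, and reads without it as reads of older RNA or of labelled RNA with no converted base in the read. The tables count a read with 1 conversion as a T > C read, since 46.0% to 63.2% of the 3′ UTR entries with 1 T > C read held exactly 1 conversion. No unlabelled library was analysed here, so the share of T > C reads due to sequencing errors or variants was not measured.

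Nearly all mitochondrial proteins are made in the cytosol and must be imported. The TOM complex of the outer membrane receives them through receptors and passes them through a channel, small TIM chaperones carry hydrophobic proteins across the intermembrane space, and the inner membrane has a TIM22 translocase for carrier proteins and a TIM23 translocase for proteins with a cleavable presequence, which a motor at its matrix side pulls in. In the matrix the presequence is cut off and degraded, and proteases of the matrix and of the inner membrane remove misfolded or surplus proteins and process others. Most members are needed by every cell type and are not particular to leukaemia cells.

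The libraries held 7252597 to 10225448 reads on 3′ UTRs, of which 477824 to 833410 were T > C reads. T > C reads were 8.74% to 8.86% of all reads in DMSO and 6.34% to 6.71% in C646. Of 10 myeloid markers, 9 had at least 1 CPM in every library (ANPEP did not), with a summed level of 3819 to 4100 CPM in DMSO and 3910 to 4247 CPM in C646, whereas lists of T cell, B cell, erythroid and epithelial markers summed to at most 3.19 CPM in any library. Levels of T > C reads are given as T > C CPM, which are CPM of the TMM-scaled total of all reads on 3′ UTRs. On this scale the median tested gene changed by -0.83 (log2) in C646, so that a change of a member is to be read beside that value. Reads are scaled to the library's own total, and less RNA per cell cannot be told apart from fewer cells. Neither labels nor methods say whether replicates were separate cultures, so p-values measure the spread between these samples, and PCR copies of a read are not separate molecules.

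T > C reads of the import genes were lower in C646 for most members. Of the 36 members, 33 had enough T > C reads to be tested, and 18 of these fell while 0 rose (edgeR's quasi-likelihood test, with the limit set at 0.01 for the adjusted p-value and at 1 for the size of the log2 fold change). The same rule called 33.0% of all 7722 tested genes lower and 2.97% higher. The median log2 fold change of the members was -1.24, against -0.83 over all tested genes, and 31 of 33 were below 0. The 18 called members ranged from -3.13 (TIMM8A) to -1.18 (TIMM9) and the other 15 from -1.09 (PMPCA) to 0.18 (LONP1). The 3 C646 libraries lay below the 3 DMSO libraries without overlap in 23 of the 33 members, and in 55.9% of all tested genes. These counts depend on how T > C reads are scaled. With TMM on the T > C reads themselves, which sets the typical gene to no change (median 0.015 over all genes), 5 members were called lower and 1 higher (LONP1, 1.02), beside 7.53% and 9.21% of all genes, and the members' median was -0.41. On that scale 591 genes were lower and 723 higher over the whole table, against 2550 and 229 with the scaling used here.

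**Figure D1:**
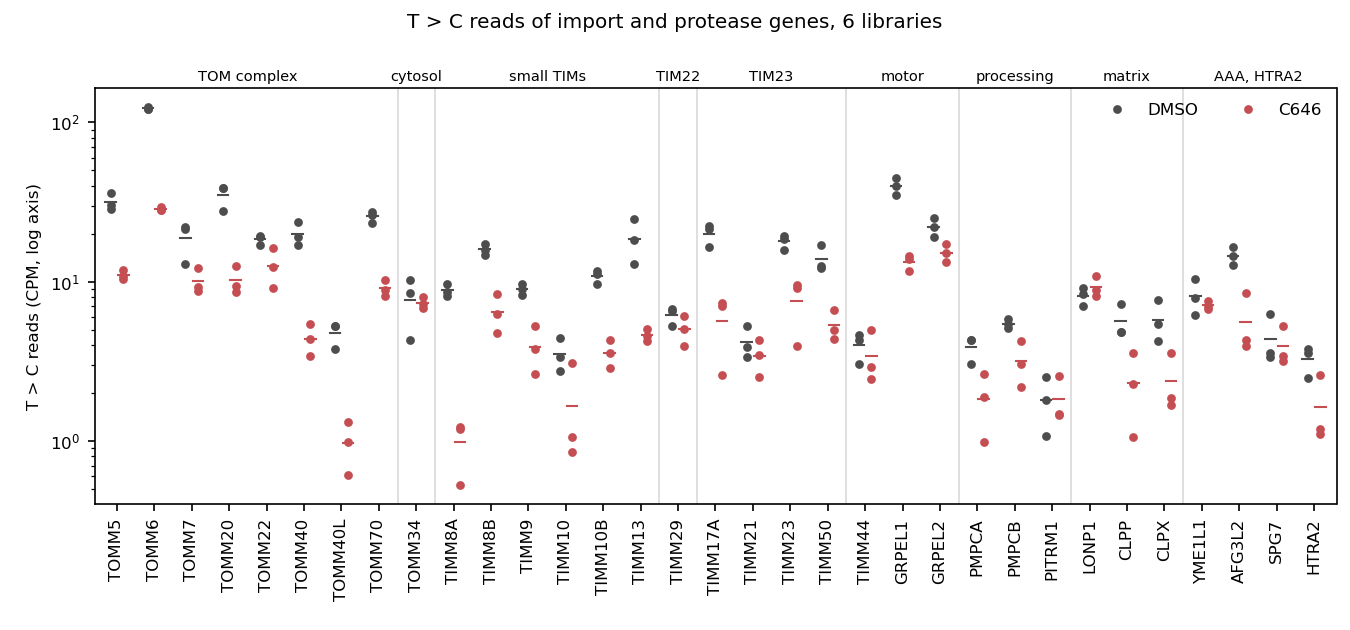
T > C reads of each tested member in T > C CPM (log axis) in 3 DMSO libraries (grey) and 3 C646 libraries (red), ordered by role; points are libraries and dashes group means. TIMM8A fell from a mean of 8.84 to 0.981, whereas both groups of LONP1 lay between 7.06 and 10.8.

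The TOM complex had 6 of 8 members called lower, beside 33.0% of all tested genes, with a median log2 fold change of -1.65. With TMM on the T > C reads, 2 of the 8 were called lower, beside 7.53% of all genes. TOMM40, which forms the channel of the outer membrane, had 19.1, 17.1 and 23.8 T > C CPM in DMSO and 3.44, 5.39 and 4.36 in C646, here and below in the order of replicates 1, 2 and 3. Each C646 library lay below the lowest DMSO library, and the log2 fold change was -2.18 (SE 0.25, adjusted p = 2.39e-08). TOMM40L, a second gene for a TOMM40-like channel protein, had 3.79, 5.27 and 5.25 T > C CPM in DMSO and 1.32, 0.613 and 0.992 in C646, and fell by 2.27 on the log2 scale (SE 0.46, adjusted p = 0.000151). Its groups did not overlap either, but the C646 values rest on 10, 5 and 10 T > C reads. TOMM6, a small subunit that helps to hold the complex together, had 121, 125 and 121 T > C CPM in DMSO and 28.2, 29.5 and 28.3 in C646, and fell by 2.09 (SE 0.15, adjusted p = 2.43e-12). Its libraries were tight within each group, and it rests on more T > C reads than any other member (614.5 per library on average). TOMM5, a further small subunit, had 30.3, 36.05 and 28.4 T > C CPM in DMSO and 11.9, 10.8 and 10.4 in C646, without overlap (log2 fold change -1.52, SE 0.20, adjusted p = 2.19e-07).

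Of the receptors of the TOM complex, TOMM20 and TOMM70 were called lower and TOMM22 was not, and the difference between them was not tested. TOMM20, a receptor for presequences, had 39.0, 27.9 and 38.6 T > C CPM in DMSO and 12.6, 9.43 and 8.63 in C646, and fell by 1.79 (SE 0.21, adjusted p = 3.41e-08). TOMM70, the receptor for carrier proteins, had 26.4, 23.4 and 27.5 in DMSO and 10.3, 8.09 and 8.83 in C646, and fell by 1.51 (SE 0.21, adjusted p = 6.05e-07). In both genes the highest C646 library was below the lowest DMSO library. TOMM22, the central receptor, had 16.97, 19.1 and 19.4 T > C CPM in DMSO and 9.12, 12.4 and 16.2 in C646, which did not overlap, but its log2 fold change of -0.55 (SE 0.22, adjusted p = 0.0351) was not called and turned to 0.28 with TMM on the T > C reads. TOMM7, a small subunit that also helps the kinase PINK1 to accumulate at the outer membrane, had 22.0, 21.5 and 12.9 T > C CPM in DMSO and 8.73, 12.3 and 9.32 in C646. DMSO replicate 3 was near the highest C646 library, and the log2 fold change of -0.90 (SE 0.23, adjusted p = 0.00174) missed the fold needed. Without DMSO replicate 3 it was -1.10 and without C646 replicate 2 it was -1.06, both of which would be called. TOMM34, a cytosolic cochaperone that binds Hsp70 and Hsp90 and is not part of the membrane complex, was the translocase-side member nearest to no change, with 8.54, 10.3 and 4.31 T > C CPM in DMSO and 6.88, 7.96 and 7.24 in C646 (log2 fold change -0.07, SE 0.29, adjusted p = 0.857). Its C646 libraries lay within the range of its DMSO libraries.

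The small TIM chaperones had 5 of 6 members called lower, beside 33.0% of all tested genes, with a median of -1.45. With TMM on the T > C reads, 2 of 6 were called lower, beside 7.53% of all genes. TIMM8A, which works with TIMM13 and is known from deafness-dystonia syndrome, had 8.64, 8.18 and 9.70 T > C CPM in DMSO and 0.529, 1.23 and 1.19 in C646. All 3 C646 libraries were far below DMSO, and the log2 fold change of -3.13 (SE 0.38, adjusted p = 7.69e-08) was the largest fall among the tested members, with 4, 10 and 12 T > C reads left in C646. TIMM8B, its close relative, had 17.2, 14.7 and 15.9 T > C CPM in DMSO and 8.33, 4.78 and 6.25 in C646, and fell by 1.31 (SE 0.24, adjusted p = 5e-05). Neither gene's groups overlapped, and the difference between both falls was not tested. TIMM13, the partner of TIMM8A, had 12.9, 24.7 and 18.2 in DMSO and 4.23, 4.53 and 5.06 in C646, and fell by 2.00 (SE 0.26, adjusted p = 2.53e-07). The DMSO libraries of TIMM13 spread from 12.9 to 24.7 but stayed above every C646 library.

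TIMM9 and TIMM10 form the chaperone ring that serves the carrier pathway, and TIMM10B joins it at the inner membrane. TIMM10B had 9.70, 11.6 and 11.2 T > C CPM in DMSO and 3.57, 4.29 and 2.88 in C646, without overlap (log2 fold change -1.60, SE 0.28, adjusted p = 2.7e-05). TIMM9 had 8.22, 9.01 and 9.70 in DMSO and 2.64, 3.80 and 5.26 in C646, and fell by 1.18 (SE 0.30, adjusted p = 0.00152). Its groups did not overlap, but the call was lost without DMSO replicate 3 (-1.12, adjusted p = 0.0113) and without C646 replicate 1 (-0.96, adjusted p = 0.0101). TIMM10 had 2.74, 4.44 and 3.37 T > C CPM in DMSO and 1.06, 0.858 and 3.07 in C646, and its log2 fold change of -1.03 (SE 0.49, adjusted p = 0.0725) was not called. C646 replicate 3 lay among the DMSO libraries, and without it the log2 fold change was -1.85 (adjusted p = 0.00449).

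At the inner membrane, the TIM23 translocase had 3 of 4 tested members called lower (33.0% of all tested genes), and 1 of 4 with TMM on the T > C reads (7.53%). TIMM17A, a core subunit beside the channel, had 22.2, 16.5 and 21.4 T > C CPM in DMSO and 7.01, 7.35 and 2.58 in C646, and fell by 1.85 (SE 0.28, adjusted p = 2.48e-06). TIMM50, the receptor that takes the presequence from the TOM complex, had 12.5, 17.1 and 12.3 in DMSO and 4.36, 6.62 and 4.96 in C646, and fell by 1.39 (SE 0.26, adjusted p = 4.77e-05). In both genes every C646 library was below every DMSO library. TIMM23, which gives the complex its name, had 15.9, 19.4 and 18.4 in DMSO and 9.52, 3.92 and 9.13 in C646, and fell by 1.24 (SE 0.26, adjusted p = 0.000184). C646 replicate 2 was the lowest, and without it the log2 fold change was -0.94, short of the fold needed. A near-identical copy, TIMM23B, has 71.6% of its own reads mapped to more than 1 place, against 0.0792% for TIMM23, so that the level of TIMM23B is uncertain. TIMM23B had 1.88 to 4.44 CPM of all reads and TIMM23 118 to 203. TIMM21, which links TIM23 to the TOM complex and the respiratory chain, had 4.17 ± 0.972 T > C CPM in DMSO and 3.42 ± 0.889 in C646 (SD, n = 3), with overlapping groups and a log2 fold change of -0.27 (SE 0.37).

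TIMM17B, the other TIMM17 gene, had too few T > C reads to pass the filter used here. It had 19, 7 and 18 T > C reads in DMSO (2.00, 0.971 and 2.42 T > C CPM) and 1, 2 and 1 in C646 (0.132, 0.245 and 0.0992 T > C CPM). Its groups did not overlap, but a fold change at such C646 counts is unreliable and is not given. With no filter 19 of 35 members were called lower, the 18 called with the filter and TIMM17B. TIMM22, the channel of the carrier translocase, had 1 read in all 6 libraries together, and PAM16, a subunit of the motor, likewise had 1, and neither was tested. Of the 3 entries of TIMM22, 2 are on alternate contigs, and the main entry of PAM16 is a stretch of 68 bases on an alternate contig that overlaps CORO7-PAM16 on the same strand. TIMM29, which stabilises TIMM22, had 6.18 ± 0.795 T > C CPM in DMSO and 5.01 ± 1.04 in C646 (SD, n = 3), with overlapping groups and a log2 fold change of -0.29 (SE 0.30).

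Of the motor, GRPEL1 was called lower. GRPEL1 is the nucleotide exchange factor of the matrix Hsp70, and had 35.1, 45.1 and 40.1 T > C CPM in DMSO and 14.5, 13.97 and 11.6 in C646, without overlap (log2 fold change -1.59, SE 0.19, adjusted p = 5.1e-08). GRPEL2, the second gene for such a factor, had 25.2, 22.0 and 19.0 in DMSO and 15.2, 17.2 and 13.3 in C646, which did not overlap either, but its log2 fold change of -0.54 (SE 0.20, adjusted p = 0.0228) was not called and turned to 0.30 with TMM on the T > C reads. The difference between GRPEL1 and GRPEL2 was not tested. TIMM44, which tethers the motor to the TIM23 channel, had 4.00 ± 0.838 T > C CPM in DMSO and 3.44 ± 1.34 in C646 (SD, n = 3), and its groups overlapped (log2 fold change -0.21, SE 0.38).

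The proteases had 3 of 10 members called lower, near the 33.0% of all tested genes, and their median log2 fold change of -0.89 was close to that of all tested genes (-0.83). With TMM on the T > C reads, 0 of 10 were called lower and 1 (LONP1) higher, near the 7.53% and 9.21% of all genes. AFG3L2, a subunit of the m-AAA protease of the inner membrane, had 14.4, 16.5 and 12.8 T > C CPM in DMSO and 3.97, 4.29 and 8.43 in C646, and fell by 1.36 (SE 0.27, adjusted p = 0.00011). C646 replicate 3 was the highest of its group but below every DMSO library. CLPP and CLPX are the peptidase and the unfoldase of one matrix protease. CLPP had 4.85, 7.21 and 4.85 T > C CPM in DMSO and 1.06, 3.55 and 2.28 in C646, and fell by 1.28 (SE 0.40, adjusted p = 0.0076). CLPX had 4.22, 7.63 and 5.39 in DMSO and 1.85, 3.55 and 1.69 in C646, and fell by 1.28 (SE 0.39, adjusted p = 0.00623). Neither pair of groups overlapped, but both calls were near the threshold. CLPP was not called without DMSO replicate 1 (adjusted p = 0.0174), DMSO replicate 2 (0.0625), DMSO replicate 3 (0.0158), C646 replicate 1 (0.0386) or C646 replicate 3 (0.0129), at log2 fold changes between -1.38 and -0.95. CLPX was not called without DMSO replicate 2 (adjusted p = 0.0648), DMSO replicate 3 (0.0183), C646 replicate 1 (0.0199) or C646 replicate 3 (0.0225), at log2 fold changes between -1.31 and -1.02.

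The other proteases were not called. LONP1, the main ATP-dependent protease of the matrix, had 7.06, 8.32 and 9.16 T > C CPM in DMSO and 10.8, 8.09 and 8.83 in C646, with overlapping groups and a log2 fold change of 0.18 (SE 0.25, adjusted p = 0.556). PITRM1, which degrades cleaved presequences, was the protease nearest to no change, with 2.53, 1.80 and 1.08 in DMSO and 1.45, 2.57 and 1.49 in C646 (log2 fold change 0.0071, SE 0.52). Its 15.3 T > C reads per library on average are the fewest of any tested member. PMPCA and PMPCB are both subunits of the peptidase that cuts off presequences. PMPCA had 4.32, 3.05 and 4.31 T > C CPM in DMSO and 2.64, 0.980 and 1.88 in C646 (log2 fold change -1.09, SE 0.44, adjusted p = 0.0371). PMPCB had 5.80, 5.41 and 5.12 in DMSO and 4.23, 3.06 and 2.18 in C646 (log2 fold change -0.80, SE 0.35, adjusted p = 0.0527), and the groups of neither gene overlapped.

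In the inner membrane, the i-AAA protease YME1L1 had 8.14 ± 2.08 T > C CPM in DMSO and 7.12 ± 0.436 in C646 (SD, n = 3), and SPG7, the partner of AFG3L2 in the m-AAA protease, had 4.40 ± 1.60 and 3.96 ± 1.15. The groups of both overlapped, with log2 fold changes of -0.20 (SE 0.27) and -0.15 (SE 0.36). HTRA2, a serine protease of the intermembrane space, had 3.28 ± 0.689 in DMSO and 1.62 ± 0.828 in C646, with overlapping groups and a log2 fold change of -0.99 (SE 0.47, adjusted p = 0.0742).

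Set beside each other, translocases had 15 of 23 tested members called lower and proteases 3 of 10, where 33.0% of all tested genes were called lower. With TMM on the T > C reads the counts were 5 of 23 and 0 of 10, where 7.53% of all genes were called lower. The median log2 fold changes of T > C reads were -1.39 and -0.89, a difference of -0.49. Summed T > C reads of the translocases went from 481 ± 8.68 T > C CPM in DMSO to 175 ± 2.00 in C646, and those of the proteases from 61.1 ± 5.28 to 39.0 ± 0.691 (SD, n = 3). The sums, in which strongly expressed members weigh most, differed by -0.82 in their log2 change, and over single libraries the median translocase minus the median protease (log2 of T > C CPM plus 0.5, relative to the DMSO mean) was -0.092, -0.013 and 0.17 in DMSO and -0.97, -0.90 and -0.83 in C646. In this last measure every C646 library was below every DMSO library, and the size of the difference varied with the measure. The protease values are less precise, since the typical protease had 33.25 T > C reads per library (15.3 to 83.5 over the 10 genes) and the typical translocase 92.5 (21.5 to 614.5). No test was made between these chosen lists, and the part of depth in the difference was not tested.

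**Figure D2:**
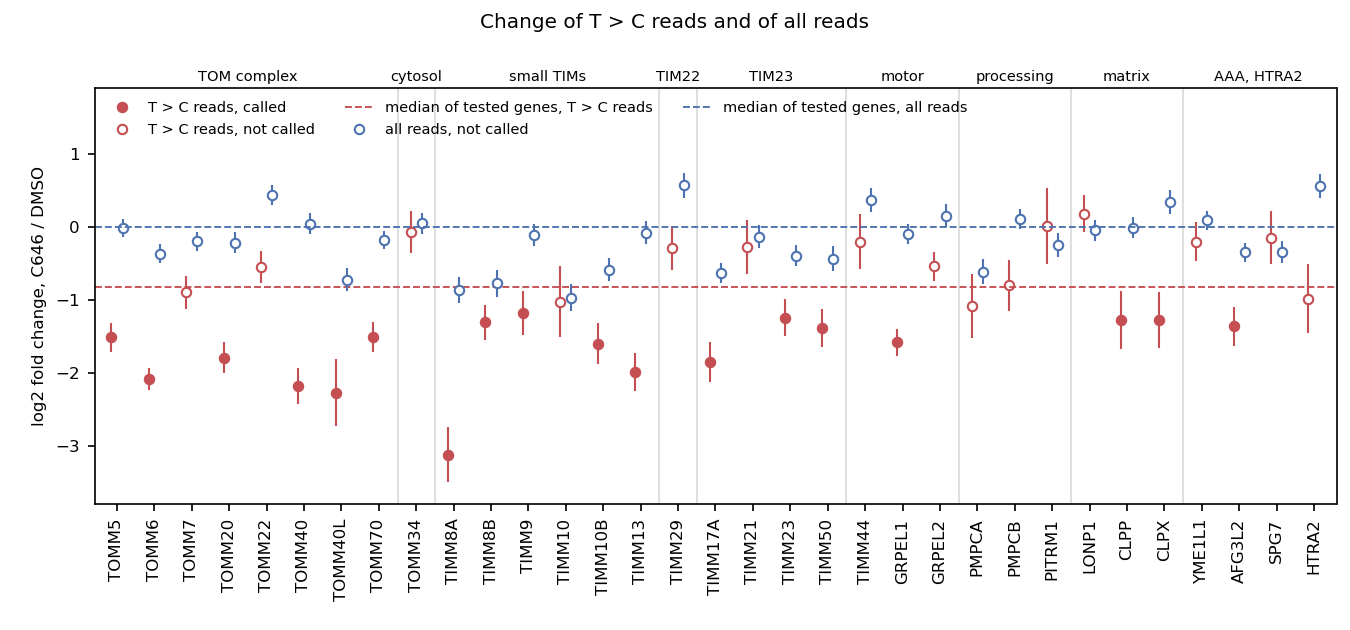
Log2 fold change of C646 over DMSO for each tested member in T > C reads (red) and in all reads (blue), with standard errors; filled points were called and dashed lines are the medians of all tested genes. Most TOM and small TIM members lay below the median of T > C reads of -0.83, whereas all reads of these 33 members stayed between -0.97 (TIMM10) and 0.57 (TIMM29). TIMM17B, not tested in T > C reads, is not drawn.

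In all reads, most of which carry no T > C change, few members were called. Of 34 members tested, 1 was called lower (TIMM17B) and 0 higher, against 1.87% and 5.90% of all 10835 tested genes, and the members' median log2 fold change was -0.16. TIMM17B had 34.9, 34.0 and 32.2 CPM of all reads in DMSO and 17.5, 20.3 and 9.42 in C646, and fell by 1.11 (SE 0.23, adjusted p = 0.0031). The C646 libraries were all lower, with replicate 3 the lowest, and the call was lost without DMSO replicate 1 (adjusted p = 0.0158), without DMSO replicate 2 (0.0119) and without C646 replicate 3, which left a log2 fold change of -0.83.

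By the adjusted p-value alone (limit 0.01, edgeR's quasi-likelihood test), 6 members were lower and 0 higher in all reads, against 6.29% and 9.83% of all tested genes. Besides TIMM17B these were TIMM10, TIMM8A, TIMM8B, TOMM40L and TIMM17A, all on the translocase side. TIMM10 had 70.5, 84.02 and 65.0 CPM in DMSO and 45.4, 39.2 and 27.5 in C646 (log2 fold change -0.97, adjusted p = 0.0015). The other 4 had log2 fold changes of -0.86 (TIMM8A), -0.78 (TIMM8B), -0.72 (TOMM40L) and -0.63 (TIMM17A), and their groups did not overlap. Of these 6, 2 still passed without DMSO replicate 1 (TIMM8A and TIMM10), 2 without DMSO replicate 2 (TIMM10 and TIMM17A), 4 without DMSO replicate 3 (not TIMM8A and TIMM17A), 5 without C646 replicate 1 (not TOMM40L), and 3 without C646 replicate 2 or C646 replicate 3 (TIMM8A, TIMM10 and TIMM17B in both cases), with TIMM10 in every case. TIMM10 lay so near the fold needed that it was called without DMSO replicate 3 (-1.05), without C646 replicate 1 (-1.13) and without C646 replicate 2 (-1.01). The highest values were those of TIMM29 (0.57, adjusted p = 0.0212) and HTRA2 (0.56, adjusted p = 0.0172), whose C646 libraries all lay above their DMSO libraries in all reads but did not pass. The summed reads of the translocases were 5900 ± 216 CPM in DMSO and 5073 ± 72.3 in C646, and those of the proteases 723 ± 25.8 and 692 ± 1.92 (SD, n = 3). Scaled by all filtered reads of a library instead, only TIMM10 and TIMM17B of the 6 passed, all genes shifted by 0.20 at the median, the members' median became 0.046, and 90 genes were lower and 1014 higher over the whole table, in place of 203 and 639.

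The share of T > C reads among a gene's reads compares reads with and without a T > C change within a library and needs no scaling between libraries. In DMSO the share ranged from 2.97% (TOMM7) to 57.8% (GRPEL2) over the tested members, with a median of 10.5%, and in C646 from 1.06% (TIMM13) to 35.6% (GRPEL2), with a median of 5.32%. The share was tested through its odds, the T > C reads of a gene against its other reads. Calls and log2 fold changes given for the share are those of the odds, which change by more than the share itself, most of all where the share is high. In this measure 19 of 33 members were lower in C646 and 0 higher, against 38.3% and 0.790% of all tested genes. The members' median log2 fold change was -1.11 against -1.004 over all genes. Without DMSO replicate 2 the count of lower members was 12, of which 11 were among these 19, and the share of all genes called lower went down as well, to 26.4%. TOMM40L, TIMM9, TIMM10B, TIMM29, GRPEL2, CLPP, CLPX and AFG3L2 were no longer called, at adjusted p-values from 0.0109 (GRPEL2) to 0.0213 (AFG3L2). AFG3L2 was also lost without DMSO replicate 1 (adjusted p = 0.0102), C646 replicate 1 (0.0142) or C646 replicate 2 (0.0128), TOMM40L without DMSO replicate 3 (0.0156) or C646 replicate 2 (0.016), and TIMM10B without DMSO replicate 3 (0.0208) or C646 replicate 1 (0.0103). Of the 18 members called lower in T > C reads, 15 were also called lower in the share. The 3 that were not are TIMM8B (-0.56), TIMM23 (-0.94) and TIMM50 (-0.97). TIMM23 would be called without C646 replicate 1 (-1.09) or C646 replicate 3 (-1.22), and TIMM50 without DMSO replicate 3 (-1.09), C646 replicate 2 (-1.15) or C646 replicate 3 (-1.08). PMPCB, at -0.98, would be called without C646 replicate 1 (-1.23).

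The 4 members called lower by the odds of the share but not in T > C reads were TOMM22, TIMM29, GRPEL2 and HTRA2. In TOMM22 the share was 6.13%, 6.41% and 5.55% in DMSO and 2.48%, 2.92% and 3.52% in C646 (log2 fold change -1.05, adjusted p = 2.31e-05, edgeR's quasi-likelihood test), while all reads of this gene had a log2 fold change of 0.44 (adjusted p = 0.0275). GRPEL2 had shares of 57.2%, 63.3% and 53.0% in DMSO and 35.2%, 39.0% and 32.8% in C646 (log2 fold change of the odds -1.31, adjusted p = 0.000709). Its mean share itself, 57.8% and 35.6%, changed by less than the fold needed. More than any other member, GRPEL2 was made up of T > C reads in both groups, whereas the share of GRPEL1 was 26.0%, 27.7% and 24.5% in DMSO and 9.97%, 9.46% and 8.48% in C646. HTRA2 had shares of 14.2%, 10.7% and 12.7% in DMSO and 3.35%, 2.81% and 6.34% in C646 (log2 fold change -1.70, adjusted p = 0.0012). TIMM29 had 29.4%, 21.5% and 22.2% in DMSO and 11.7%, 12.7% and 14.9% in C646 (log2 fold change of the odds -1.08, adjusted p = 0.00898). Its mean share itself, 24.4% and 13.1%, changed by less than the fold needed. The call of TIMM29 was lost without any 1 library other than C646 replicate 3 (adjusted p from 0.0198 without DMSO replicate 2 to 0.0675 without DMSO replicate 1). In these 4 genes no C646 library reached the lowest DMSO share, and leaving out 1 library also ended the call of TOMM22 (-0.94 without C646 replicate 1), GRPEL2 (-1.15 and adjusted p = 0.0109 without DMSO replicate 2) and HTRA2 (-1.59 and adjusted p = 0.0116 without DMSO replicate 1).

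**Figure D3:**
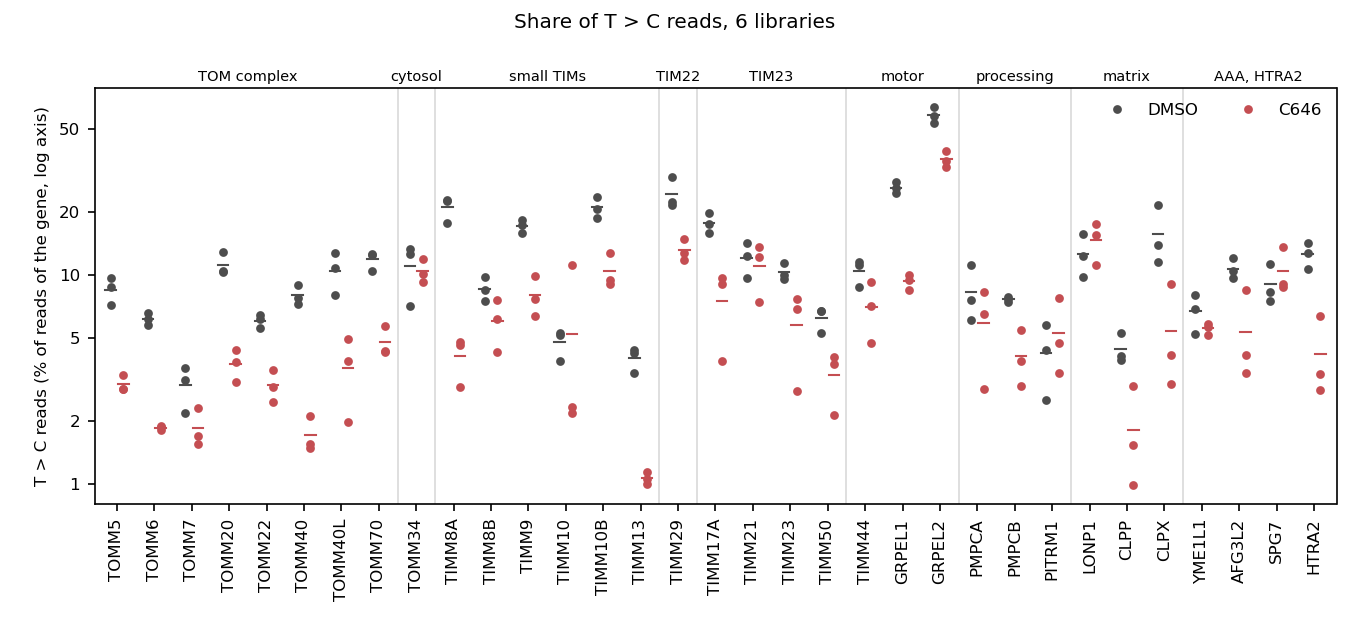
T > C reads in percent of all reads of the gene (log axis) in each library of DMSO (grey) and C646 (red), by role; dashes are group means. GRPEL2 had the highest share in both groups (57.8% and 35.6%), and TIMM10 had 1 C646 library, replicate 3, at 11.2% with the others at 2.33% and 2.19%.

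The conversion rate, the number of T > C conversions per covered T, ranged over the tested members from 0.191% (PITRM1) to 5.29% (GRPEL2) in DMSO and from 0.0738% (CLPP) to 3.04% (GRPEL2) in C646, with medians of 0.753% and 0.334%. TIMM8A went from 1.60% ± 0.208 to 0.197% ± 0.0339, and TOMM40 from 0.672% ± 0.0759 to 0.15% ± 0.0416 (SD, n = 3). LONP1 had 1.04% ± 0.0709 and 1.005% ± 0.287, and its share of T > C reads was 12.6% ± 2.98 and 14.7% ± 3.22.

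Of 39 further genes of import and mitochondrial protein quality control, 28 had enough T > C reads, 8 of which fell and 4 rose (against 33.0% and 2.97% of all tested genes). With TMM on the T > C reads, 0 of 30 were called lower and 6 higher (7.53% and 9.21% of all genes), so that the falls given next are all lost on that scale. Other import and assembly factors had 4 of 11 lower, among them CHCHD4 and GFER, the oxidoreductase and the sulfhydryl oxidase of the intermembrane space, and ranged from -2.18 (SAMM50, which inserts proteins into the outer membrane) to 0.29 (TIMMDC1, an assembly factor of complex I). Prohibitins and MICOS, the scaffolds of the inner membrane, had 4 of 8 lower and ranged from -1.58 (PHB2) to 0.04 (APOO). Matrix chaperones had 3 of 4 higher and ranged from -0.73 (TRAP1, not called) to 2.59 (HSPE1). HSPA9, the matrix Hsp70 with which GRPEL1 and GRPEL2 work, had 18.2, 21.5 and 27.2 T > C CPM in DMSO and 49.98, 38.1 and 45.5 in C646, without overlap, with a log2 fold change of 1.00 (adjusted p = 4.5e-05) that sits at the fold needed. Its all reads had a log2 fold change of 0.88 and its T > C share one of 0.12 (adjusted p = 0.502), which was not called. In the share 2 of 4 matrix chaperones were higher, beside 0.790% of all tested genes. Other mitochondrial peptidases had 1 of 5 higher, XPNPEP3, a matrix aminopeptidase, at 2.20, and the lowest was IMMP1L, a subunit of the inner membrane peptidase, at -1.22, which was not called. Of the listed partner genes MTX1, an import and assembly factor not tested in T > C reads, had 100% of its reads mapped to more than 1 place. TIMM23B had 71.6% and HSPD1 14.7%, and the levels of these genes are uncertain for that reason.

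The reads of the members were placed on the 3′ UTRs of the annotation, on GRCh38. In 29 members 1 entry held all reads, and in the other 7 the main entry held at least 83.3% (CLPX). Of the 36 main entries, 35 lie on a UTR that GENCODE release 44 gives to this gene, all but that of PAM16 on its alternate contig. The 3′ UTR of TIMM8A is at chrX:101345656-101346498 (minus strand), that of TOMM40 at chr19:44903170-44903689 (plus strand), that of TOMM6 at chr6:41789531-41789896 (plus strand), that of GRPEL1 at chr4:7058895-7060861 (minus strand), that of GRPEL2 at chr5:149351283-149354583 (plus strand) and that of LONP1 at chr19:5691834-5692208 (minus strand). None of the tested members shares its main entry with another gene on the same strand, and 8 lie opposite another gene, among them TOMM6 (USP49), TIMM13 (TMPRSS9) and AFG3L2 (TUBB6). The library kit reads the strand of the RNA. Reads mapped to more than 1 place were 0% to 1.18% of the reads of a tested member, the highest for TOMM20.

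Genes of mitochondrial proteins are known to be controlled in part through NRF1 and through GABP of the ETS family, and promoters of 31 members, all but TOMM5, TIMM8B, GRPEL1, CLPP and YME1L1 (RefSeq, GRCh38.p14, from 250 bases before to 50 after the start) were searched on both strands for the letters of their motifs. The ETS and GABP motif CCGGAAG stood in 14 of 31 members (45.2%), in 12.2% of all genes with a promoter in the table and in 26.2% of the tested genes. It was in 6 of 14 promoters of members called lower in T > C reads and in 8 of the 17 others. These others include TIMM17B, TIMM22 and PAM16, which were not tested and do not have this motif. The NRF1 motif GCATGCGC stood in 5 members (16.1%, against 7.64% of the tested genes), the E-box CACGTG in 4 (12.9%, against 13.8%), and the CRE motif TGACGTCA and the pair of heat shock units GAANNTTC in 0 (against 4.28% and 6.59%). In TIMM10 an E-box and an ETS motif lie within the same 30 bases, and otherwise motifs were counted without regard to overlap. Some genes have windows of several starts in the table, any of which was counted. A match of letters does not show that a factor binds there. To show the same motif in members that fell and in members that were not called, stretches of 8 promoter windows of 7 genes are printed, 30 bases each, 5′ to 3′ on the strand of the gene, with the motif in capitals (CTTCCGG is CCGGAAG on the other strand). They are chr1:235128841-235128870 for TOMM20 (minus strand), chr3:100401175-100401204 for TOMM70 (minus strand), chr6:41787603-41787632 for TOMM6 (plus strand), chr22:38681947-38681976 for TOMM22 (plus strand), chr20:44960383-44960412 for TOMM34 (minus strand), chr5:149345341-149345370 for GRPEL2 (plus strand), and for LONP1 chr19:5720300-5720329 (ETS) and chr19:5720459-5720488 (NRF1), both on the minus strand and in windows of different starts.
TOMM20: gttgactgggaCCGGAAGtggcgtgtgctc
TOMM70: tttcccttaacCCGGAAGtgatttccgccc
TOMM6: gccggtagcagCCGGAAGtgccagaccgga
TOMM22: cctcctttccgCTTCCGGtgtcccctacag
TOMM34: ggcgcttgcgcCCGGAAGgtgtgccgcacc
GRPEL2: cacactgagagCCGGAAGtgttgccttagc
LONP1, ETS: aaagtgggagaCCGGAAGaggcggagacga
LONP1, NRF1: ctagagtctgaGCATGCGCatgttgtccgc
The same core stands in TOMM20, TOMM70 and TOMM6, whose T > C reads fell, and in TOMM22, TOMM34, GRPEL2 and LONP1, which were not called.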

How the data were processed

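MOLM-13 cells in C646 or DMSO (3 libraries each) were measured by SLAM-seq with stranded 3′ end libraries. Reads were mapped by the authors to GRCh38 (slamdunk 0.4.1), and they deposited, per 3′ UTR entry, raw counts of all reads, T > C reads, multimapped reads and conversions. They deposited a signal, the coverage of T positions, used here as the denominator of the conversion rate, and reads as CPM of all filtered reads, used here to recover the filtered totals. The table of C646 replicate 3 lists 0 T bases throughout, and that column was not used. The 58136 entries were summed to 25420 genes, of which 25310 had a symbol.

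Genes kept by filterByExpr were tested with edgeR 4.0.16 (glmQLFit, glmQLFTest, R 4.3.3) over the whole table with Benjamini-Hochberg adjustment. T > C reads were scaled by TMM-scaled totals of all reads. The share was tested as the odds of T > C against other reads of a gene, by a T > C by treatment term with library as a factor. Calls needed an adjusted p-value not above 0.01 and a log2 fold change of 1 or more in size, and SE is the absolute log2 fold change over the square root of F. The authors' analysis took reads with 2 or more conversions and DESeq2. The counts used here are all T > C reads of the tables, and DESeq2 1.42.0 was an alternative. In all reads, same-group libraries differed by 7.87 to 27.7 times the noise of counting (chi-square over its degrees of freedom), which was not computed for T > C reads. Tested members averaged 15.3 to 614.5 T > C reads a library. The steps were tested on simulated data. All 36 members are named, with each library's values for members called in any measure, for 6 pairs of related genes and for the member nearest to no change in each set. Other lists are given by counts and their lowest and highest gene, and HSPA9, HSPD1, CHCHD4, GFER and MTX1 were named after their values were seen. The members and lists were chosen with earlier results of these data known. Alternatives were other scalings, DESeq2, no filter or at least 50 T > C reads per library, the main 3′ UTR alone, multimapped reads subtracted, a replicate block and each library left out. Python 3.11.15 with pandas 2.3.3, numpy 2.4.6 and matplotlib 3.10.9 gave summaries and plots.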

Additional observations from a re-analysis of the deposited data

How the results depend on the processing

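The calls rested on how T > C reads were scaled. Of 18 members lower in T > C reads, 5 remained with TMM on the T > C reads (TOMM6, TOMM40, TIMM8A, TIMM13 and TIMM17A), where 1 was higher (LONP1), and 4 remained with DESeq2 and size factors from T > C reads. Over all genes DESeq2 with those factors called 565 lower and 660 higher. Members not called changed sign under these 2 scalings in that order, namely TOMM22 (0.28 and 0.25), TOMM34 (0.77 and 0.74), TIMM29 (0.54 and 0.51), TIMM21 (0.56 and 0.53), TIMM44 (0.62 and 0.59), GRPEL2 (0.30 and 0.27), PMPCB (0.045 and 0.018), YME1L1 (0.64 and 0.61) and SPG7 (0.69 and 0.66). With all filtered reads as the scale, 15 of the 18 remained (not TIMM9, CLPP and CLPX) while the genes lower over the whole table went from 2550 to 1874, TOMM34 (0.14), TIMM44 (0.0044) and SPG7 (0.051) changed sign, and 0 members were lower in all reads. With each library left out in turn, 16 to 19 members were lower in T > C reads, 0 to 2 in all reads and 12 to 21 in the T > C share, and log2 fold changes near 0 crossed it in TOMM34 (-0.34 to 0.18), PITRM1 (-0.31 to 0.35), YME1L1 (-0.36 to 0.015) and SPG7 (-0.40 to 0.18). The difference of translocases and proteases was -0.82 from summed reads and -0.69 to -0.48 over libraries left out. DESeq2 with size factors from all reads gave 17 of the 18 (not CLPP), the main 3′ UTR alone 17 (not CLPX), and a minimum of 50 T > C reads 14, where fewer members were tested.

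Neither labels nor methods say that same-numbered libraries belong together, and deviations from the group means correlated weakly between them (0.030 to 0.065 in T > C reads, -0.0014 to 0.23 in all reads). With the replicate block the same 18 members were lower in T > C reads, 18 of 19 in the share (TIMM29 was lost) and 1 in all reads. In T > C reads 6 of 6 libraries correlated best with the library of their own number, but in all reads 3 of 6 did, which is a hint from the data only. The causes of the other changes were not tested. TIMM22, PAM16 and TIMM17B had too few T > C reads to pass the filter used here, and whether the annotated places of TIMM22 and PAM16 have a part in this was not tested. The fewest T > C reads per library among tested members were those of PITRM1 (15.3 on average), and the part of depth in single calls was not tested.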
